A study of Mus musculus with 9 samples.

Results

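The genes described here are 10 enzymes that conjugate electrophiles to glutathione or reduce quinones and carbonyls: the glutathione transferases *Gsta3*, *Gsta4*, *Gstm1*, *Gstp1*, *Gsto1*, *Gstt2* and *Mgst1*, the quinone reductases *Nqo1* and *Nqo2*, and the carbonyl reductase *Cbr1*. They are 10 of the 54432 genes in the count table, and they were chosen by name, as the detoxifying enzymes with the largest rises after treatment in earlier results of these same libraries. The differences between treated and untreated cells are therefore given as a description, without a test. The data went against that choice for 6 of the 10 enzymes. *Gsta3*, *Nqo1*, *Gstm1* and *Mgst1* stood clearly above control in every treated library, *Gsta4* was barely detected in any library, and *Gstp1*, *Gsto1*, *Gstt2*, *Nqo2* and *Cbr1* lay close to their control level.

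RNAseq was carried out on RAW 264.7 cells, a macrophage-like line established from a mouse tumour. There were 3 libraries of untreated cells (control), 3 of cells that had received 1 mM VLDLsep, an emulsion of very low-density lipoprotein size, and 3 of cells that had received 1 mM CHYLsep, an emulsion of chylomicron size, with an exposure of 6 hours. Both emulsions were made of sunflower oil with sodium caseinate as emulsifier, so they model the size and the triglyceride core of the lipoproteins but carry no apolipoprotein of their own. According to the methods, samples that had the same condition in an experiment were combined, which makes every library 1 pool, and the untreated cells are not described as having received the emulsifier.

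Glutathione transferases join the thiol of glutathione to electrophilic compounds such as the reactive aldehydes and epoxides that arise when polyunsaturated lipids oxidize. They fall into soluble classes, named alpha, mu, pi, omega, theta and so on, and a separate family of membrane proteins to which *Mgst1* belongs. Quinone reductases transfer electrons in pairs to quinones and so avoid the semiquinone radical, and carbonyl reductases turn aldehydes, ketones and quinones into alcohols or hydroquinones. Many of these genes are textbook targets of the transcription factor NRF2, which binds the antioxidant response element (ARE).

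Depth was nearly equal, with 22393893 to 22856792 estimated counts per library. All 7 macrophage markers examined were detected (*Lyz2*, *Csf1r*, *Cd68*, *Cd14*, *Itgam*, *Fcgr1* and *Adgre1*), with a summed level of 6176 to 6272 cpm (counts per 1000000) in control, 5576 to 5746 in VLDLsep and 5703 to 5888 in CHYLsep. The markers did not move together, since the mean of *Cd68* was 928 cpm in control, 1044 in VLDLsep and 1017 in CHYLsep, while that of *Cd14* was 821, 566 and 595 and that of *Fcgr1* 70.1, 39.2 and 43.5. The 4 epithelial markers were at 0 in every library, and the summed fibroblast, lymphoid and endothelial markers never exceeded 2.53, 0.09 and 1.97 cpm. In RNA from whole cultures, fewer cells of a type and less RNA per cell cannot be told apart. The replicate 3 libraries shared a deviation across genes, which is given below where it touches an enzyme.

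The sequence just upstream of the start is shown for *Gsta3* and *Nqo1*, the genes furthest above control, because they differ in what a motif search found there. The search used RefSeq promoters of GRCm38.p6, from 250 bases before to 50 bases after each start, and both strands. The motifs were the ARE core TGACNNNGC and the AP-1 site TGANTCA, whose letters overlap, so that 1 stretch can match both. Over all 32851 promoters, 12.4% held the ARE core, 7.81% the AP-1 site and 1.17% both. The stretch of *Gsta3* lies at chr1:21240335-21240584 on the plus strand and that of *Nqo1* at chr8:107403207-107403455 on the minus strand, both 5′ to 3′ and both outside annotated exons, with the ARE core match in capitals.
Gsta3: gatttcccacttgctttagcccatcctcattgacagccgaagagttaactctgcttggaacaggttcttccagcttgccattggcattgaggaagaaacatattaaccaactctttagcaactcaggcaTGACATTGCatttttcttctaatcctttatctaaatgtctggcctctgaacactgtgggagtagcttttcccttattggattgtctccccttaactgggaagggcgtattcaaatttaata
Nqo1: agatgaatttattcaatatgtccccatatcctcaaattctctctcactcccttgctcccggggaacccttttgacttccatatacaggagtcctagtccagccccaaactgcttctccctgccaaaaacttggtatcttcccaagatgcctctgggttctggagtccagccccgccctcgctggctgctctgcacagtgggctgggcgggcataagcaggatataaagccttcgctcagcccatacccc
In *Gsta3* the match began at position -121 from the start, counting the last base before it as -1, and in *Nqo1* these letters were not found in this window. Promoters were listed for 8 of the 10 enzymes, with 11 starts in all, and 2 of the 8 held an ARE core and 2 an AP-1 site. Each such gene held its match at 1 start only, so the counts also hold for the 11 starts, the unit of the shares above. The other ARE core was in *Mgst1*, on the opposite strand from position -56. The AP-1 sites were in *Gstp1*, from position -74, and at the second start of *Nqo2*. The *Mgst1* match is shown from chr6:138140461-138140489 (plus strand) and the *Gstp1* match from chr19:4037970-4037996 (minus strand), each with the match in capitals. Unlike the longer stretches above, that of *Mgst1* lies within the annotated gene, which begins at 138140316. That of *Gstp1* overlaps its annotated gene, which reaches to 4037985.
Mgst1: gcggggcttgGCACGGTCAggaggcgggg
Gstp1: tccaacgtgtTGAGTCAgcatccgggg
A match is a description of the letters and not evidence of binding.

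Among the alpha class, *Gsta3* was nearly silent in control cells and well detected after either emulsion. *Gsta3* (ENSMUSG00000025934, GRCm38 chromosome 1, 21240589 to 21265661, plus strand) encodes a transferase that acts on lipid-derived electrophiles and steroid isomers. It had 2, 3 and 5 counts in control 1 to 3, against 243, 240 and 304 in the VLDLsep libraries and 239, 228 and 280 in the CHYLsep libraries. The 6 treated libraries were all far above the 3 controls, and 2 of the controls had no more than 3 counts. In cpm, *Gsta3* was at 0.142 ± 0.0664 (SD, n = 3) in control, 11.9 ± 1.68 in VLDLsep and 11.2 ± 1.36 in CHYLsep. With so few control counts the fold is best read from its lower limit. The ratio of summed counts, corrected for library size, was 84.3 for VLDLsep with an exact 95% interval from 45.6 to 176, and 79.3 for CHYLsep with an interval from 42.9 to 166. These intervals cover counting error only and leave out the spread between libraries, so 45.6-fold and 42.9-fold are lower limits for counting error alone. The fitted log2 differences were 6.27 ± 0.43 (SE) and 6.18 ± 0.43, and for VLDLsep other tools gave 5.73 (limma-trend) to 6.40 (DESeq2).

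*Gsta4*, the alpha transferase that is best known for conjugating 4-hydroxynonenal, could not be followed in these cells. The gene (ENSMUSG00000032348, chromosome 9, 78182774 to 78209349, plus strand) had 0 counts in 7 libraries and 1 count each in CHYLsep 1 and CHYLsep 2. A count of 0 allows up to 3 counts, or 0.126 to 0.137 cpm in these libraries, so all 9 values are at or under the level that could be told from 0. It was left out of the fit by the filter, which required more than 10 counts in at least 3 libraries, and no fold is given. The other 9 enzymes passed, *Gsta3* and *Nqo1* only through their treated libraries, since no control library of either had more than 10 counts.

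*Gstm1*, a mu class transferase with a broad range of substrates, had the largest difference from control in level per kb among the 10. It (ENSMUSG00000058135, chromosome 3, 108012255 to 108017973, minus strand) was at 43.9, 44.0 and 40.0 cpm in control, 127, 114 and 103 in VLDLsep, and 102, 111 and 103 in CHYLsep. Every treated library was above every control, and replicate 3 was the lowest of its group in control and VLDLsep. The mean was 42.7 ± 2.30 cpm (SD, n = 3) in control, 115 ± 12.0 in VLDLsep and 106 ± 4.94 in CHYLsep, and the fitted log2 differences from control were 1.42 ± 0.08 (SE) and 1.31 ± 0.08. Of the 31-base words in its transcripts, 28.8% also occur in other genes, mostly *Gstm2-ps1* (22.6%) and *Gstm3* (13%), so part of its reads could in principle be shared. The deposited counts of *Gstm1* were whole numbers in all 9 libraries, and *Gstm3* was at 0 in every library. No level of *Gstm2-ps1* is given here.

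*Mgst1*, the membrane-bound transferase of the endoplasmic reticulum and outer mitochondrial membrane, which also reduces lipid hydroperoxides, was the fourth enzyme above control. The gene (ENSMUSG00000008540, chromosome 6, 138140316 to 138156755, plus strand) was at 3.15, 4.47 and 1.71 cpm in control, 9.04, 8.27 and 7.42 in VLDLsep, and 8.20, 9.54 and 6.25 in CHYLsep. The groups did not overlap, but replicate 3 was the lowest in each of them, and the control libraries were widely spread. Means were 3.11 ± 1.38, 8.24 ± 0.810 and 7.99 ± 1.66 cpm (SD, n = 3), with log2 differences of 1.5 ± 0.28 (SE) for VLDLsep and 1.44 ± 0.28 for CHYLsep. Without control replicate 3 the log2 differences were 1.12 and 1.07.

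The other 3 soluble transferases were close to their control levels. *Gstp1*, the pi class enzyme that many tumours overexpress (ENSMUSG00000060803, chromosome 19, 4035407 to 4037985, minus strand), ranged from 9.21 to 10.7 cpm in control, 8.85 to 10.5 in VLDLsep and 8.94 to 10.0 in CHYLsep. The ranges overlapped almost entirely, and the log2 differences were 0.00 ± 0.10 (SE) and -0.02 ± 0.10. It shares 38.5% of its 31-base words with *Gstp2*, which had at most 5.17 counts in any library.

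*Gsto1*, an omega class enzyme with thioltransferase and dehydroascorbate reductase activity (ENSMUSG00000025068, chromosome 19, 47854970 to 47864790, plus strand), was at 72.5, 68.3 and 63.9 cpm in control. It was at 79.7, 77.2 and 69.4 in VLDLsep and 74.8, 85.3 and 73.6 in CHYLsep. VLDLsep 3 lay within the control range, whereas the 3 CHYLsep libraries lay just above it. The log2 differences were 0.14 ± 0.08 (SE) and 0.19 ± 0.08. *Gstt2*, a theta class enzyme (ENSMUSG00000033318, chromosome 10, 75831114 to 75837424, minus strand), spanned 2.11 to 3.13 cpm in control, 2.28 to 2.37 in VLDLsep and 2.04 to 2.74 in CHYLsep, and all groups overlapped. Its log2 differences were -0.11 ± 0.19 and -0.13 ± 0.19.

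The levels of both quinone reductases differed widely. *Nqo1*, the NAD(P)H-dependent enzyme and a widely used NRF2 target (ENSMUSG00000003849, chromosome 8, 107388225 to 107403206, minus strand), had 6, 1 and 5 counts in control, 128, 105 and 111 in VLDLsep, and 90, 122 and 96 in CHYLsep. As with *Gsta3*, a nearly silent gene was detected in all 6 treated libraries, with no overlap. The means were 0.170 ± 0.112 cpm (SD, n = 3) in control, 5.20 ± 0.578 in VLDLsep and 4.62 ± 0.780 in CHYLsep. The ratio of summed counts was 30.7 for VLDLsep (exact 95% interval 17.4 to 60.0) and 27.3 for CHYLsep (15.4 to 53.3), which puts the lower limits at 17.4-fold and 15.4-fold for counting error alone. The fitted log2 differences were 5.03 ± 0.46 (SE) and 4.85 ± 0.46. Control replicate 2, with its single count, had a large part in them, and without it they were 4.36 and 4.18.

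*Nqo2*, which uses dihydronicotinamide riboside instead of NAD(P)H (ENSMUSG00000046949, chromosome 13, 33964687 to 33988443, plus strand), was already abundant in control cells. It was at 50.9, 52.2 and 48.6 cpm in control, 43.5, 48.2 and 41.8 in VLDLsep, and 45.9, 50.9 and 42.9 in CHYLsep. The VLDLsep libraries lay just below the controls and the CHYLsep libraries overlapped them. The log2 differences were -0.19 ± 0.08 (SE) and -0.12 ± 0.07. Of its 31-base words 18.1% also occur in *Serpinb6a*, and its counts were fractional in 5 of 9 libraries.

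*Cbr1*, the main cytosolic carbonyl reductase (ENSMUSG00000051483, chromosome 16, 93605853 to 93610505, plus strand), was at 10.5, 12.1 and 12.1 cpm in control, 12.6, 11.3 and 14.3 in VLDLsep, and 11.3, 14.4 and 13.4 in CHYLsep. The groups overlapped, with log2 differences of 0.14 ± 0.12 (SE) and 0.17 ± 0.12.

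**Figure D1:**
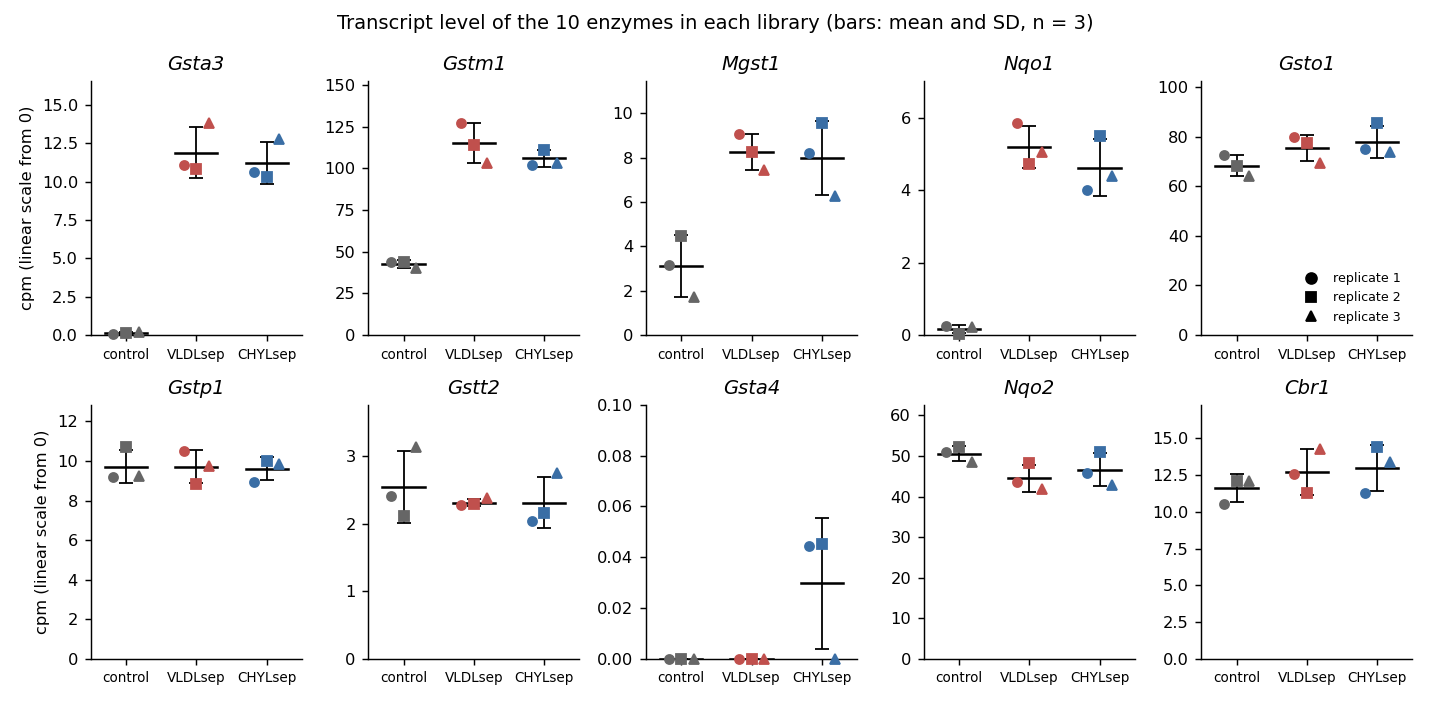
Level of each of the 10 enzymes in cpm (linear axis from 0, a scale of its own for each gene) in the 3 control, 3 VLDLsep and 3 CHYLsep libraries. Symbols give the replicate number, horizontal lines the mean and whiskers the SD of 3 libraries. *Gsta3*, *Gstm1*, *Mgst1* and *Nqo1* are above control in all 6 treated libraries, and *Gsta4* has a count in only 2 libraries.

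In all, every VLDLsep library was above every control library for 4 of the 9 enzymes fitted and below for 1 (*Nqo2*), where 23.7% of the 12637 genes fitted were above and 23.7% below. Every CHYLsep library was above every control library for 5 enzymes, the same 4 and *Gsto1*, and below for none, against 20.8% and 20.9% of all genes. Nothing is read from these counts, since the same comparison chose the enzymes. The median log2 difference over the 9 enzymes was 0.14 for VLDLsep and 0.19 for CHYLsep, beside 0 over all genes fitted in both comparisons. Both particle groups were compared with the same 3 control libraries.

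Replicate 3 touched several of the enzymes. On the log2 scale, replicate 3 minus the mean of replicates 1 and 2 was -1.12 in control, -0.22 in VLDLsep and -0.50 in CHYLsep for *Mgst1*. For *Gsta3* it was 0.92, 0.34 and 0.29, for *Gstt2* 0.47, 0.05 and 0.38, and for *Cbr1* 0.11, 0.27 and 0.06. *Nqo1* had 0.84 in control but -0.06 and -0.10 in the treated groups. *Gstm1*, *Gsto1* and *Nqo2* were lower in replicate 3 of every group, by no more than 0.23. The median absolute value of this difference over all genes was 0.13 to 0.14. Its part in the levels was not tested. With all replicate 3 libraries left out, the log2 differences of *Gsta3*, *Nqo1*, *Gstm1* and *Mgst1* from control were 6.46, 5.32, 1.45 and 1.2 for VLDLsep. For CHYLsep they were 6.39, 5.16, 1.28 and 1.23.

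The level of one enzyme relative to another was compared per length of transcript, as cpm divided by the mean length in kb of the protein-coding transcripts. In control cells the order was *Gsto1* (87.1 ± 5.45, SD, n = 3), *Gstm1* (42.7 ± 2.30), *Nqo2* (33.1 ± 1.18), *Gstp1* (12.7 ± 1.08), *Cbr1* (12.6 ± 1.02), *Mgst1* (3.97 ± 1.76), *Gstt2* (1.97 ± 0.409), *Gsta3* (0.137 ± 0.0644) and *Nqo1* (0.109 ± 0.0721). *Gstp1* and *Cbr1*, *Mgst1* and *Gstt2*, and *Gsta3* and *Nqo1* were neighbours that did not differ beyond their spread. In VLDLsep cells *Gstm1* (115 ± 12.0) came before *Gsto1* (96.4 ± 6.89), and *Gsta3* reached 11.5 ± 1.63, where its libraries overlapped those of *Gstp1* and *Mgst1*. *Nqo1* stayed low among the 10 even after treatment, at 3.35 ± 0.372 in VLDLsep and 2.97 ± 0.502 in CHYLsep per kb. The choice of transcript matters for the absolute values. With the longest transcript in place of the mean, *Gsta3* in control was at 0.0507 and came after *Nqo1*, and *Nqo2* was at 13.2. In VLDLsep *Gsta3* was then at 4.26 ± 0.601, with libraries from 3.86 to 4.95 that no longer overlapped *Mgst1* (6.36 to 7.74) or *Gstp1* (10.8 to 12.8).

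Summed over the 25 *Gst* and *Mgst* genes with an entry in the table, the level per kb was 281 ± 18.3 cpm (SD, n = 3) in control, 388 ± 27.4 in VLDLsep and 380 ± 26.3 in CHYLsep. The sum was carried by a few genes. *Gsto1* made up 31% of it in control, 24.8% in VLDLsep and 26.2% in CHYLsep, and *Gstm1* made up 15.2%, 29.4% and 27.8%. *Gsta3*, in spite of its fold, made up 3.00% in VLDLsep and 2.88% in CHYLsep, or 1.5% and 1.45% with the longest transcripts. *Mgst3*, a membrane-bound relative of *Mgst1* outside the 10, was the second largest share in control at 20.0% and was at 13.8% in both treated groups. These shares follow from the comparison that chose the enzymes and carry no test.

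**Figure D2:**
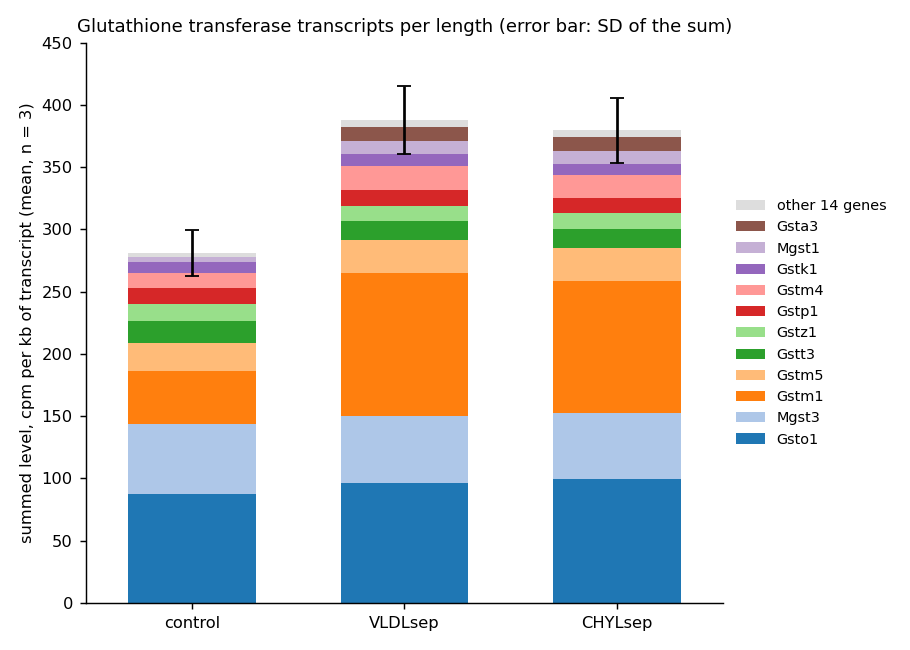
Stacked mean level of 25 glutathione transferase genes, in cpm per kb of transcript (linear axis from 0), in control, VLDLsep and CHYLsep (n = 3 each); the error bar is the SD of the sum. The sum is 281 in control, 388 in VLDLsep and 380 in CHYLsep, and the *Gstm1* segment is the one that grows most.

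Whether particle size mattered for these enzymes was tested by comparing VLDLsep with CHYLsep, a comparison that the choice of genes did not use. The labels and the methods give the same dose and time for both particles, but a figure legend of the study names a lower dose for CHYLsep in these cells, so that a difference in size and one in dose could not be told apart if the legend were right. None of the 9 enzymes differed between the particles by limma, with adjusted p-values from 0.86 to 1.0 over all genes, and none had an unadjusted p under 0.05. Over the whole table limma called 0% of 12637 genes in this comparison, with 813 under an unadjusted p of 0.05. That count depends on the model. With the replicate number added to the model (a replicate block) limma called 147 genes, and without all replicate 3 libraries it called 257. None of the 9 enzymes was among them. edgeR called no gene and DESeq2 called 24, none of them an enzyme of this group, although DESeq2 gave an adjusted p for only 3 of the 9.

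The sizes of the differences were small, and their intervals show how far they are resolved. The largest was for *Nqo1*, whose log2 level was 0.18 higher in VLDLsep with a 95% interval from -0.24 to 0.60. For *Gsta3* the difference was 0.09 (-0.19 to 0.36), and for *Gstm1* 0.11 (-0.05 to 0.28). The widest intervals belonged to *Mgst1* at 0.06 (-0.43 to 0.55) and *Gstt2* at 0.01 (-0.41 to 0.44). The abundant *Gsto1* and *Nqo2* were bounded more closely, at -0.05 (-0.21 to 0.12) and -0.07 (-0.23 to 0.10). A p above the threshold does not show that the particles act alike. A difference of 0.60 on the log2 scale in *Nqo1* would still lie within its interval.

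**Figure D3:**
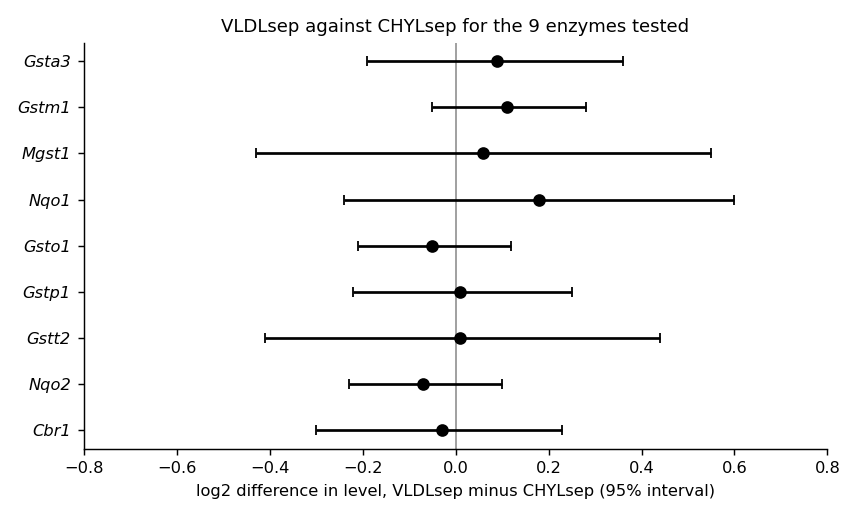
Difference in log2 level between VLDLsep and CHYLsep (horizontal axis, positive where VLDLsep is higher) for the 9 enzymes that could be fitted; points are limma estimates and bars 95% intervals. Every interval includes 0, and the estimates lie between -0.07 and 0.18.

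The relatives of these enzymes outside the 10 were compared with control as well. The 3 lists used held 22 other glutathione transferases and relatives, 25 other quinone and carbonyl reductases and 21 other conjugating and detoxifying enzymes, and they were also drawn up with earlier results of these libraries known, so their counts are not independent evidence of a direction. Of their 68 genes, 41 were fitted and 11 had no count in any library. With VLDLsep 16 of the 41 were higher at an adjusted p under 0.05 (limma), beside 17.8% of all genes higher and 17.9% lower. With CHYLsep 14 of the 41 were higher, beside 12.7% of all genes higher and 13.0% lower. Of the 41, *Gsta2*, *Mgst2* and *Gsto2* passed the filter without exceeding 10 counts in every control library. Among the 38 others, a count added after the data were seen, 14 were called higher with VLDLsep and 12 with CHYLsep, beside 18.2% and 13.0% of the 11960 genes of that kind. By list, the calls were 4 of 13 among the transferases and their relatives (*Gsta2*, *Gstm4*, *Mgst2* and the leukotriene pathway protein *Alox5ap*) with either particle. Of these 4, *Gsta2* and *Mgst2* passed the filter only through treated libraries, so no weight is put on their calls. Among the reductases, 7 of 17 were called with VLDLsep and 6 with CHYLsep. In the list of conjugating and detoxifying enzymes, 5 of 11 were called with VLDLsep and 4 with CHYLsep. The 5 were *Ugt1a6a*, *Ugt1a7c* and the aldehyde dehydrogenases *Aldh2*, *Aldh3a2* and *Aldh9a1*, which oxidize and do not conjugate. The median log2 difference over the 41 was 0.19 for VLDLsep and 0.10 for CHYLsep. None was called lower by limma, edgeR or DESeq2 with either particle. At an unadjusted p under 0.05 in limma, 2 were lower with VLDLsep (*Gstt3* and *Akr7a5*) and 0 with CHYLsep.

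**Figure D4:**
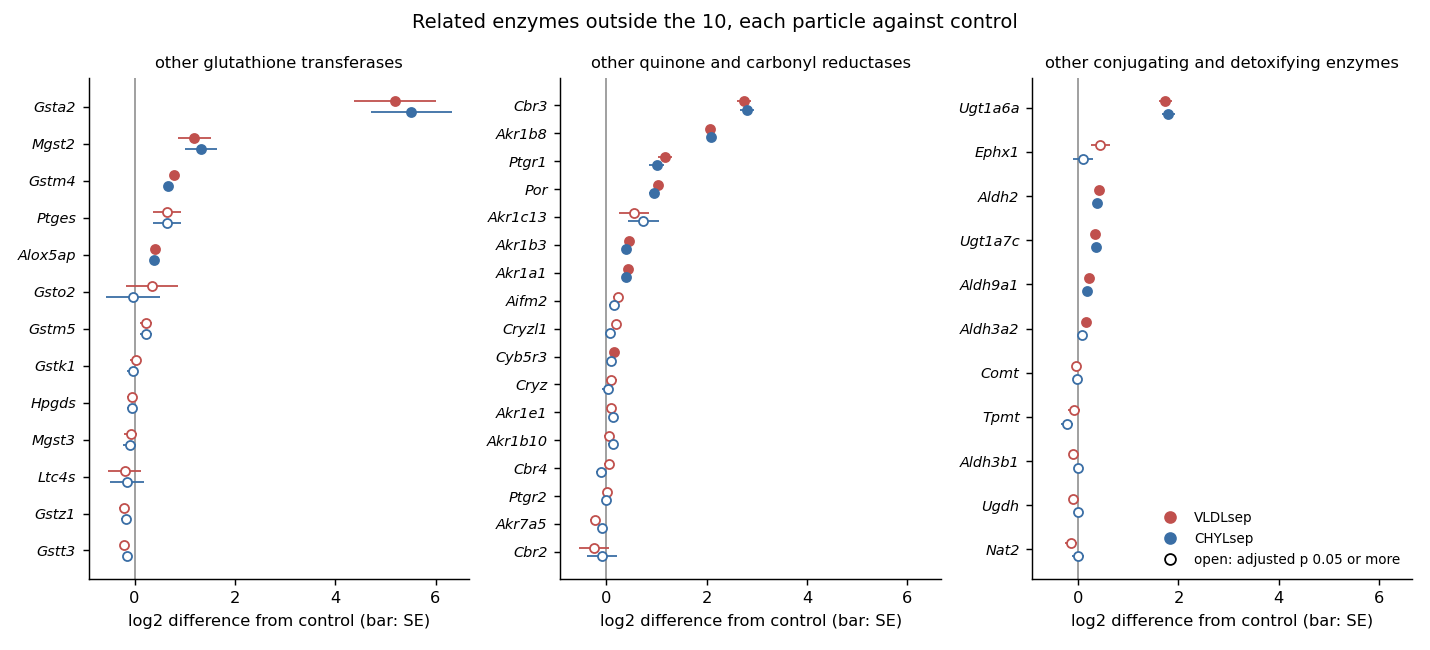
Log2 difference from control (horizontal axis) for the 41 related enzymes that were fitted, in 3 lists, with VLDLsep in red and CHYLsep in blue; bars are SE, and filled points have an adjusted p under 0.05 (limma). *Gsta2* is furthest to the right, followed by *Cbr3*, *Akr1b8* and *Ugt1a6a*, and no filled point lies to the left of 0; *Gsta2* and *Mgst2* passed the filter only through treated libraries.

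Among the other reductases were the largest rises that rest on ample counts. *Cbr3*, a carbonyl reductase that lies 72.7 kb from *Cbr1* on chromosome 16, was at 4.50 to 4.64 cpm in control, 28.5 to 33.8 in VLDLsep and 29.5 to 36.1 in CHYLsep. Its log2 rise was 2.74 ± 0.14 (SE, adjusted p = 3e-07) and 2.80 ± 0.14 (adjusted p = 3.3e-07), while that of *Cbr1* was estimated at 0.14 and 0.17. Only 2.31% of the 31-base words of *Cbr3* occur in *Cbr1*, so reads of the neighbours are well separated.

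*Akr1b8*, an aldo-keto reductase of lipid aldehydes, rose from 181 ± 16.7 cpm (SD, n = 3) to 755 ± 17.1 with VLDLsep and 764 ± 24.1 with CHYLsep. The log2 rises were 2.06 and 2.08, each ± 0.06 (adjusted p = 1e-08 and 1.2e-08), and in every group its level per kb (134, 556 and 563 cpm) was above that of any of the 10 enzymes. *Ptgr1*, which reduces the double bond of keto-prostaglandins and lipid enals, rose by 1.17 ± 0.14 with VLDLsep (adjusted p = 0.0001) and by 1.00 ± 0.14 with CHYLsep (adjusted p = 0.00051). *Por*, which passes electrons from NADPH to cytochromes P450 and heme oxygenase, rose by 1.03 ± 0.08 and 0.94 ± 0.08 (adjusted p = 6.1e-06 and 1.9e-05).

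Among the other transferases, *Gstm4*, a mu class gene 22.4 kb from *Gstm1*, rose by 0.78 ± 0.08 on the log2 scale with VLDLsep (adjusted p = 5.2e-05) and by 0.67 ± 0.08 with CHYLsep (adjusted p = 0.00026). *Gsta2*, an alpha class gene, had 1, 0 and 0 counts in control, 21, 13.6 and 48.8 in VLDLsep, and 24.7, 22.7 and 51.9 in CHYLsep. The treated libraries were all above the controls, with replicate 3 the highest of both treated groups. With 1 control count in all, the ratio of summed counts was 88.9 with an exact 95% interval from 15.5 to 3553 for VLDLsep, and 105 with an interval from 18.4 to 4193 for CHYLsep. Of its 31-base words 60.7% also occur in other genes, chiefly *Gsta1*, and its counts were fractional in 5 of 9 libraries, so the split between the alpha genes is uncertain. Its fitted log2 difference was 5.19 with VLDLsep and 5.52 with CHYLsep, and it was 4.43 and 4.89 without all replicate 3 libraries, and 3.56 and 3.88 with limma-trend.

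*Mgst2*, a membrane relative of *Mgst1* that also makes leukotriene C4, had 7 to 10 counts in control, 12 to 23 in VLDLsep and 18 to 22 in CHYLsep. The lowest treated library was above the highest control. The fitted log2 differences were 1.19 ± 0.33 (SE) and 1.32 ± 0.32. With single libraries left out they ranged from 0.99 to 1.46 for VLDLsep and from 1.23 to 1.48 for CHYLsep. Without all replicate 3 libraries they were 0.92 and 1.28. Its call, on which no weight is put, did not hold under every alternative. *Gsta2* and *Mgst2*, like *Gsta3* and *Nqo1*, passed the filter only through treated libraries, so no p-value is given for them.

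In the last list, *Ugt1a6a*, a glucuronosyltransferase of phenols, rose by 1.74 ± 0.13 (SE) on the log2 scale with VLDLsep (adjusted p = 5.6e-06) and by 1.80 ± 0.13 with CHYLsep (adjusted p = 6.6e-06). It shares 52% of its 31-base words with *Ugt1a7c*, whose own rise was 0.33 and 0.36. The mean in control was 2.62 cpm for *Ugt1a6a* and 172 cpm for *Ugt1a7c*. Counts of *Ugt1a6a* were fractional in 9 of 9 libraries, so the split of reads between these genes is uncertain. The other 8 genes called with VLDLsep, *Ugt1a7c* among them, and the other 6 called with CHYLsep changed by no more than 0.5 on the log2 scale. Of the promoters of these 8 relatives (*Gsta2*, *Gstm4*, *Mgst2*, *Cbr3*, *Akr1b8*, *Ptgr1*, *Por* and *Ugt1a6a*), 9 starts in all, none held the ARE core and those of *Mgst2* and *Ugt1a6a* held an AP-1 site. Over all promoters the shares were 12.4% and 7.81%.

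The genes whose pattern was most like that of *Nqo1* were sought among 10747 genes outside the 10 with a mean of at least 50 counts in 1 group, by the root mean square difference over the 9 libraries in log2 cpm relative to the mean of the controls. The nearest was *Hmox1*, heme oxygenase 1, at 0.68. It was followed by *Fosl1*, an AP-1 subunit (0.76), *Slc7a11*, the cystine transporter (0.84), *Il1f9*, a cytokine of the interleukin-1 family (0.86), and *Treml4*, a myeloid receptor (0.94). In control *Fosl1* and *Il1f9* were at 0.0429 and 0.0564 cpm, under the 0.126 to 0.129 cpm that a count of 0 allows there. Their distances thus rest on control values that could not be told from 0. *Nqo1* itself, to which all distances were measured, had 6, 1 and 5 counts in control, with control 2 at 0.0421 cpm. The distances of *Hmox1*, *Slc7a11* and *Treml4* therefore also depend on control values of *Nqo1* near 0. The distance of *Gsta3* from *Nqo1* was 1.23, and those of *Mgst1* and *Gstm1* were 2.95 and 2.97. *Hmox1* differed from *Nqo1* by far in abundance, with 263 ± 66.2 cpm (SD, n = 3) in control, 7114 ± 683 in VLDLsep and 5572 ± 1265 in CHYLsep. The measure takes in the size of the shift and the scatter over 9 libraries in 3 groups, and the ranking is a description.

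**Figure D5:**
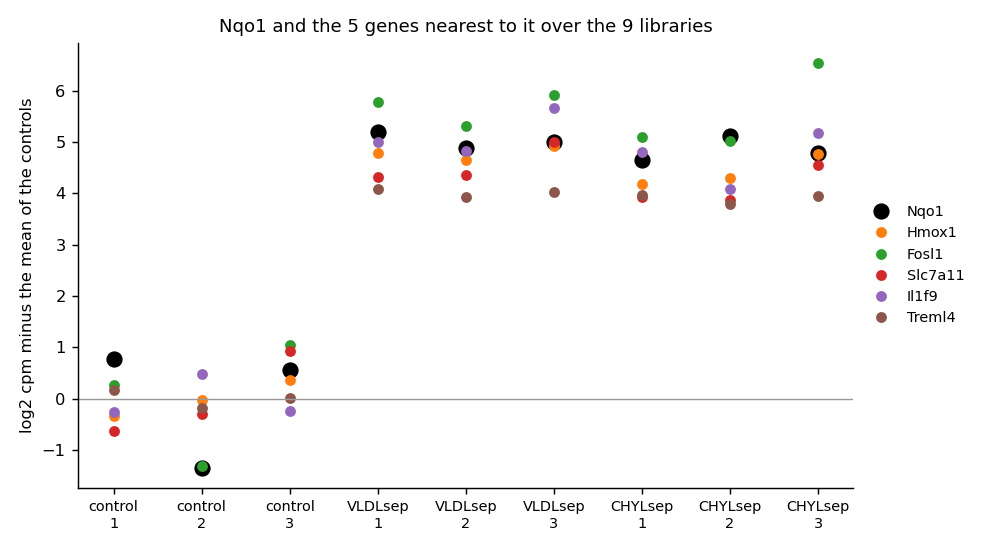
Log2 cpm minus the mean of the 3 controls (vertical axis) in each of the 9 libraries for *Nqo1* (black) and the 5 genes nearest to it. The control points scatter around 0, with *Nqo1* in control 2 at -1.34, and in the 6 treated libraries *Nqo1* lies between 4.65 and 5.20.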

How the data were processed

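RNA of 9 RAW 264.7 pools was sequenced by the authors as paired ends on a BGISEQ-500, with a random-primed library whose strandedness is not given in the sources used here. Reads were mapped with Salmon 0.14.1 to GENCODE transcripts of GRCm38.p6 and summarized with tximport. What the authors deposited are gene-level estimated counts. Scaling for length and for library size is described in their methods, but 67.3% of the deposited values above 10 were whole within 0.001, so the values were treated as unscaled. All columns were mapped to a sample (0 unmapped). Symbols were matched for 54346 of 54432 identifiers, and coordinates, transcript lengths and exons came from the GENCODE annotation of GRCm38.

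The 12637 genes above 10 counts in 3 or more libraries were normalized by TMM (edgeR 4.0.16) and fitted by voom and limma 3.58.1 in R 4.3.3, in a joint model of the 9 libraries, with p-values adjusted by Benjamini-Hochberg over the genes fitted and a threshold of 0.05. Cpm values use TMM-scaled library sizes, and means and SDs are over 3 libraries, which may share technical spread. For edgeR and DESeq2 1.42.0 the estimated counts were rounded. The steps were tested on simulated counts. Intervals of count ratios are exact conditional binomial at 95%. Named were the 10 enzymes, the genes of 3 related lists with an adjusted p under 0.05 and a log2 difference over 0.5 against control, and the 5 genes nearest to *Nqo1*. All other list genes that the text names fall outside this rule and were named after their values were seen. *Gsta13* was not matched. The enzymes and the lists were chosen with earlier results of these data known. A count over genes with more than 10 counts in every control library was added after the data had been seen. Alternatives were edgeR's quasi-likelihood test, DESeq2, limma-trend (prior count 2), upper-quartile normalization or scaling to library size alone, a filter at 50 counts or none, a fit of just the groups compared, a replicate block, the longest transcript, and each library or all replicate 3 libraries left out.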

Additional observations from a re-analysis of the deposited data

How the results depend on the processing

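No enzyme of the 10 was called between VLDLsep and CHYLsep under any alternative. The number of related enzymes called higher lay between 13 and 21 for VLDLsep and between 12 and 17 for CHYLsep (14 and 12 over the genes with more than 10 counts in every control library), within 1.5 times the reported counts. The number called lower with VLDLsep was 0 as reported, 5 with library size only, 2 with the replicate block, and 1 each with the stricter filter, with upper-quartile normalization and without all replicate 3 libraries, and it ranged from 0 to 1 when single libraries were left out. Library size only shifts the median of all genes by -0.0935 for VLDLsep. The median log2 difference of the 9 enzymes was 0.05 for VLDLsep with library size only, and 0.14 to 0.22 with single libraries left out. Between the particles, uncalled differences near 0 changed sign: *Mgst1* was at -0.03 without all replicate 3 libraries, and with single libraries left out *Mgst1* ranged from -0.11 to 0.20, *Gsta3* from -0.03 to 0.18, *Gstp1* from -0.05 to 0.08, *Gsto1* from -0.09 to 0.02, *Gstt2* from -0.07 to 0.14 and *Cbr1* from -0.13 to 0.05. The causes were not tested.

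Same-numbered libraries correlated by 0.089, 0.099 and 0.22 (VLDLsep with control), 0.098, 0.024 and 0.27 (CHYLsep with control) and 0.00021, 0.10 and 0.28 (VLDLsep with CHYLsep) in their deviations from the group means. Libraries of unlike number correlated by -0.21 to 0.14. The labels do not say whether a number marks a shared experiment, and these values do not exclude it. The main fit did not take the numbers as pairs, and the replicate block shows what changes if they are. Every replicate 3 library correlated best with its own number, and replicates 1 and 2 did so with control for VLDLsep but not always in the comparisons with CHYLsep. The replicate block moved the genes called between the particles from 0 to 147, none of them among the 10, and the related enzymes called higher to 21 and 17. Leaving out all replicate 3 libraries gave 257 genes. Depth limits *Gsta4*, *Gsta3*, *Nqo1*, *Gsta2* and *Mgst2*, whose control libraries had 10 counts or fewer.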

Other observations

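Several relatives of *Mgst1* and of the soluble transferases make lipid mediators instead of detoxifying, and they were named here after their values were seen. *Alox5ap*, which presents arachidonate to 5-lipoxygenase, was abundant at 152 ± 4.06 cpm (SD, n = 3) in control, 201 ± 18.9 in VLDLsep and 199 ± 15.7 in CHYLsep, with a log2 rise of 0.41 ± 0.08 (SE, adjusted p = 0.0019, limma) and 0.39 ± 0.08 (adjusted p = 0.0034). *Ptges*, the inducible prostaglandin E synthase, was estimated at 0.65 ± 0.28 with VLDLsep (adjusted p = 0.096) and 0.64 ± 0.28 with CHYLsep (adjusted p = 0.12) and did not pass. *Ltc4s*, leukotriene C4 synthase, was at -0.20 ± 0.33 and -0.15 ± 0.33, and *Hpgds*, the hematopoietic prostaglandin D synthase, was at -0.06 ± 0.10 with both particles, none of which passed.

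Of the other aldehyde-handling enzymes, also named after their values were seen, *Aldh2*, the mitochondrial aldehyde dehydrogenase, rose by 0.41 ± 0.06 (adjusted p = 0.00043) and 0.37 ± 0.06 (adjusted p = 0.0014), and *Akr1a1* and *Akr1b3*, which reduce aldehydes with NADPH, rose by 0.44 and 0.45 with VLDLsep (adjusted p = 3.1e-05 and 1.4e-05) and by 0.40 and 0.39 with CHYLsep (adjusted p = 9.2e-05 and 6.7e-05). *Akr1b10*, the gene that shares most 31-base words with *Akr1b8* (6.41%), was at 0.05 ± 0.10 and 0.14 ± 0.10 and did not pass in either comparison.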
